A study of Physcomitrium patens with 4 samples.

Results

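Cells grown for 48 h from isolated moss protoplasts were compared with the protoplasts as they were at isolation, over every gene of the series. All 18800 listed genes were members, whether their tags occurred in both libraries, in only 1 of them or in neither. The comparison used 2 of the 4 libraries, with 1 pooled library a side. The measurement was digital gene expression tag profiling of Physcomitrella patens, which reads from each transcript a 21-base tag that begins with CATG. The series also holds libraries of 24 h and 72 h, whose tags are given where they show the course of a gene, and 4 counts in a row stand for 0, 24, 48 and 72 h in that order.

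The 0 h library held RNA of fresh protoplasts, freed with the wall-digesting enzyme mix Driselase, in the dark, from 6-day-old protonemata (the filaments of the moss gametophyte) of the wild type. The 48 h library held RNA of such protoplasts after culture in liquid BCDAG medium with ammonium tartrate and mannitol and without hormones, for 24 h in darkness and then in daily cycles of 16 h light and 8 h dark. Both groups were wild type, with no transgene and no further agent. Time in culture, medium and light changed together between these libraries and cannot be told apart. With 1 library a side the spread between cultures was not measured, so no p-value is given, and the 95% intervals (exact Clopper-Pearson) cover counting error only. In RNA of a whole culture, fewer cells of a type and less RNA per cell cannot be told apart.

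A protoplast is a plant cell without its wall. Moss protoplasts are known to rebuild the wall, become polar and divide into new filaments whose tip cell is a stem cell. In light, green cells need antenna proteins that hold chlorophyll, photosystems that turn light into electron flow, and Calvin cycle enzymes that fix carbon. Expansins loosen the wall of growing cells, and heat shock proteins are chaperones that hold or refold other proteins.

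The tags shifted toward fewer genes by 48 h. The 0 h library had tags of 16710 genes and the 48 h library of 13920, and 13090 genes had tags in both. Their totals were 2247746 and 1964182 tags. The genes with the most tags that together held 50% of a library numbered 967 at 0 h and 441 at 48 h. In the 24 h and 72 h libraries this number was 935 and 198.

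A gene was called when it differed at least 4-fold after scaling with TMM factors (trimmed mean of M-values) and held at least 100 tags in the higher library. Of the 14432 genes tested, those with 10 tags or more over both libraries, 940 (6.51%) rose and 1379 (9.56%) fell, 2319 (16.1%) in all. Scaled by total tags instead, 724 were called higher and 1659 lower, so that 30.4% of the calls were higher in place of 40.5%. The called rises held 6.52% of the tags at 0 h and 43.1% at 48 h, while the called falls held 29.6% and 2.44%. The median fold was 7.37 among the rises and 8.62 among the falls with tags in both libraries. A bound or ratio of at least 100-fold was reached by 33 rises and 28 falls. The median log2 ratio of 48 h over 0 h was −0.36, with quartiles of −2.18 and 1.11, and 32.9% of the genes lay within 2-fold.

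**Figure D1:**
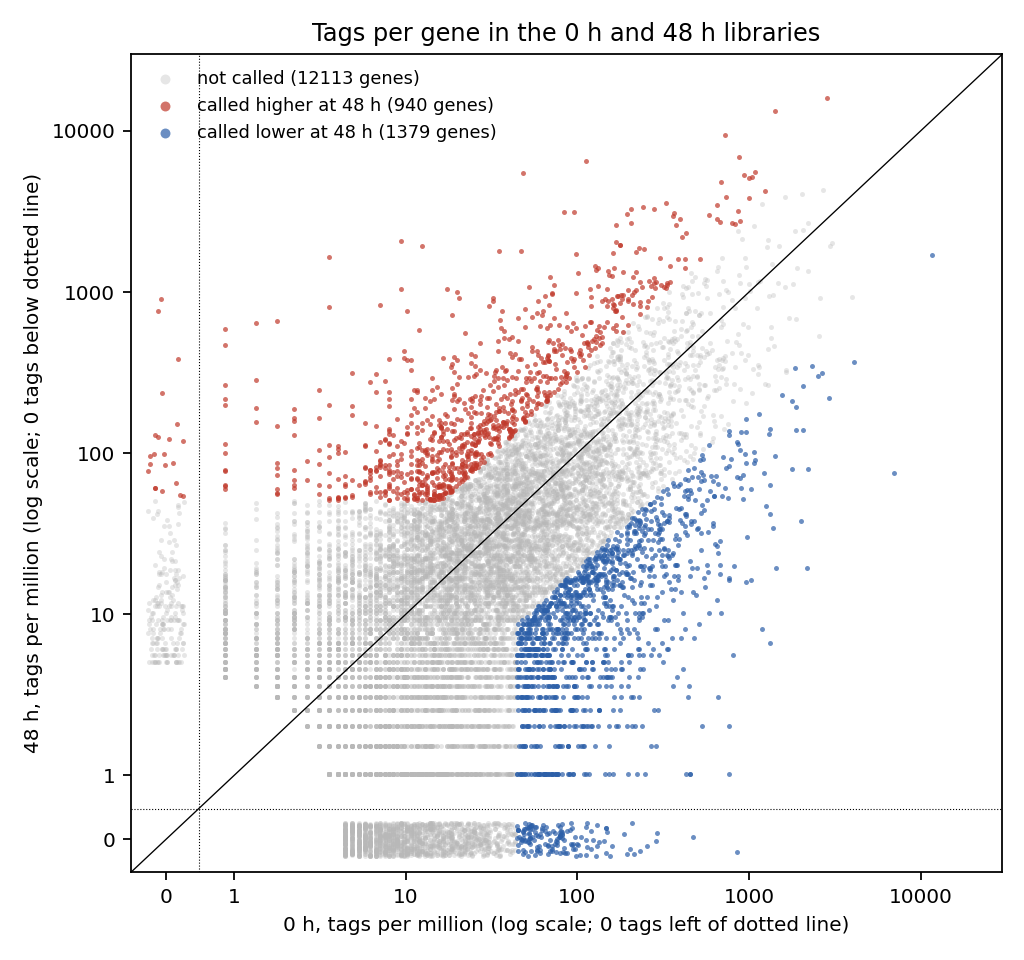
Tags in 1000000 of each of the 14432 genes at 0 h (horizontal axis) and at 48 h (vertical axis), on log scales, with genes of 0 tags spread beside the dotted lines. Red points are the 940 genes called higher at 48 h, blue points the 1379 called lower and grey points the others, and more genes lie on the strip of 0 tags at 48 h than on that of 0 tags at 0 h.

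The plot of tags per gene shows that the direction went with the level. Among the 7424 genes with 10 to 99 tags over both libraries, the median log2 ratio was −0.72. Among the 6219 genes with 100 to 999 tags it was −0.12, with 721 higher and 1235 lower calls. Among the 789 genes with 1000 tags or more it was 0.61, and there the higher calls outnumbered the lower by 219 to 144.

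Gene groups were drawn from the Arabidopsis match that the files give for each gene, as 43 lists by role and as smaller families. Named genes that no rule of size took, most of them family members, were chosen after their values were seen. Tags that matched several genes had been removed, so counts of near-identical copies are uncertain in every family below.

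**Figure D2:**
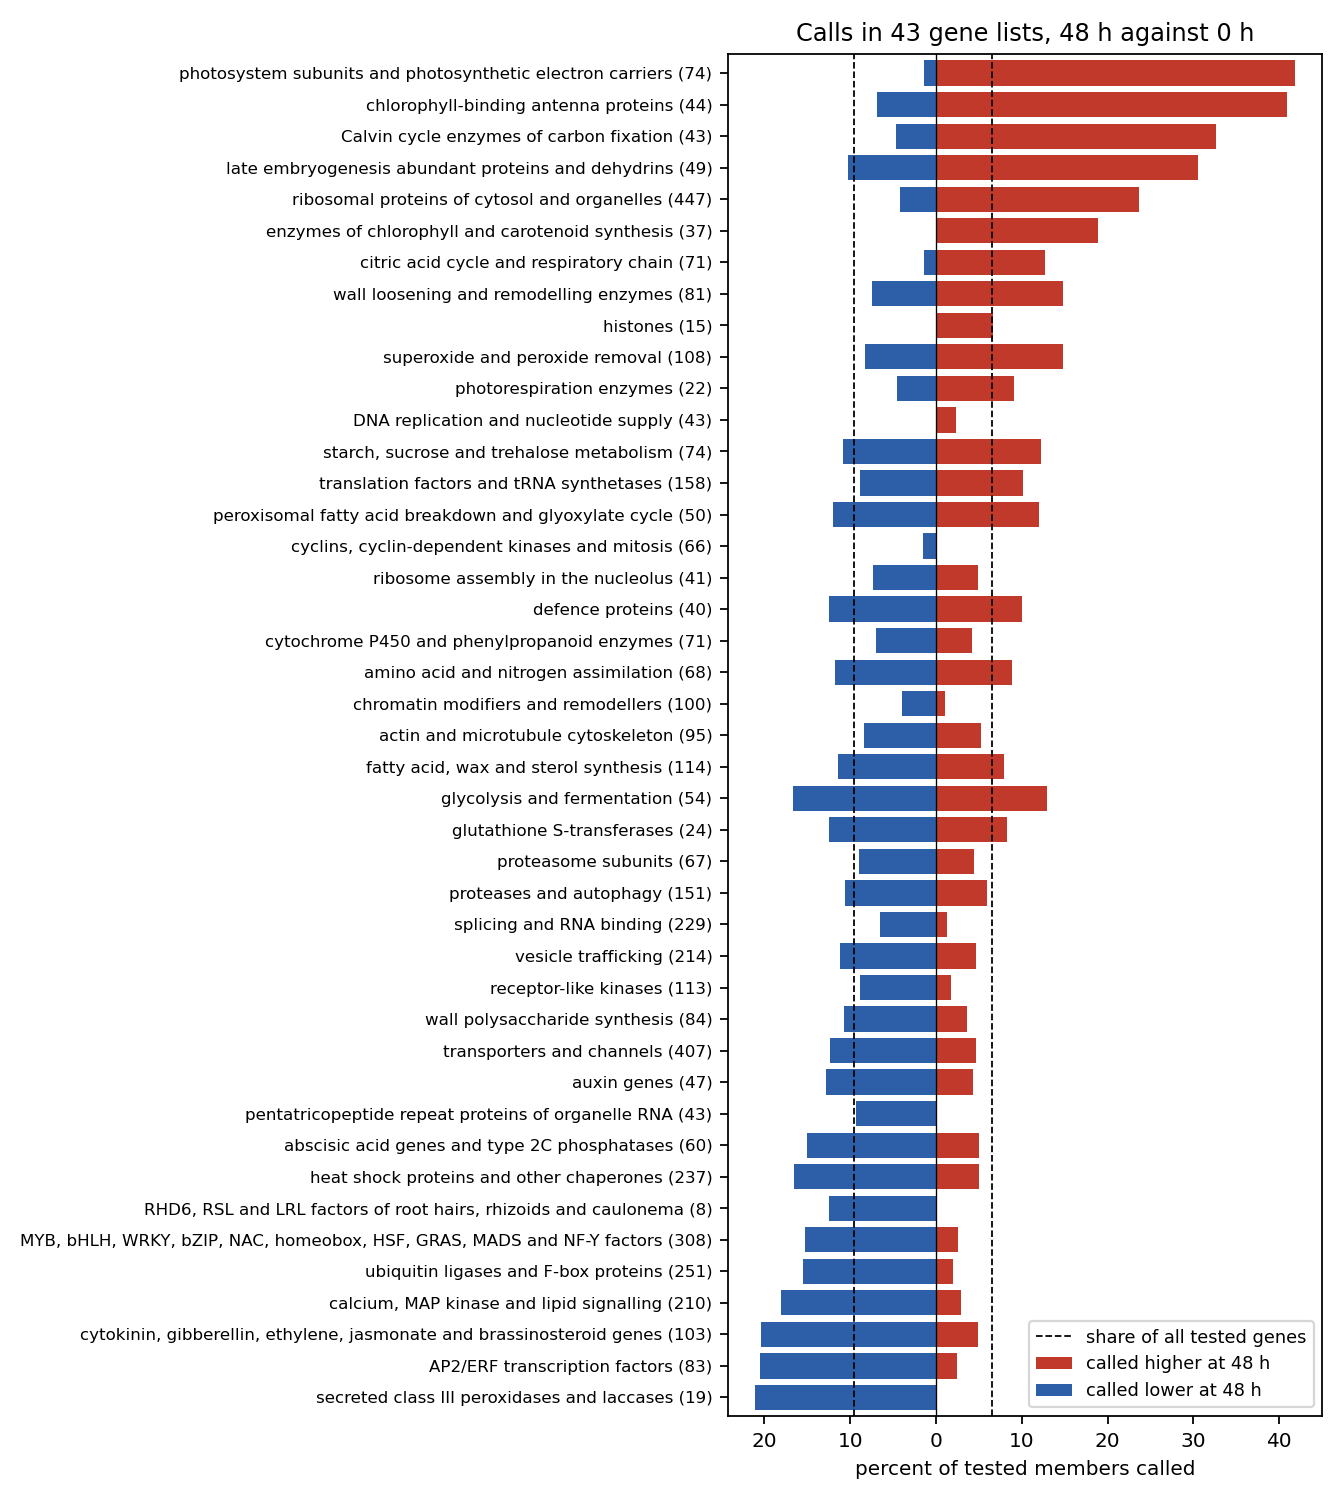
Percent of the tested members of each of 43 gene lists (number tested in brackets) called higher at 48 h (red, to the right) and lower (blue, to the left), with dashed lines at 6.51% and 9.56%, the shares of all tested genes. Photosystem, antenna, Calvin cycle, late embryogenesis abundant and ribosomal protein lists stand to the right, and peroxidase, AP2/ERF, hormone and signalling lists to the left.

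The photosystem, antenna and Calvin cycle lists had the highest shares of rises among the 43 lists, at 41.9%, 40.9% and 32.6% of their tested genes. Of 74 tested genes of photosystem subunits and electron carriers, 31 rose and 1 fell, with a median log2 ratio of 1.65. Of 44 antenna genes, 18 rose and 3 fell, with a median of 1.39, and of 43 Calvin cycle genes, 14 rose and 2 fell, with a median of 1.32. The photosystem list took 1.53%, 0.495%, 5.98% and 0.802% of all tags at 0, 24, 48 and 72 h. The antenna list took 1.32%, 0.462%, 6.14% and 1.33%. Both lists thus held a larger share of the 48 h library than of any other.

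**Figure D3:**
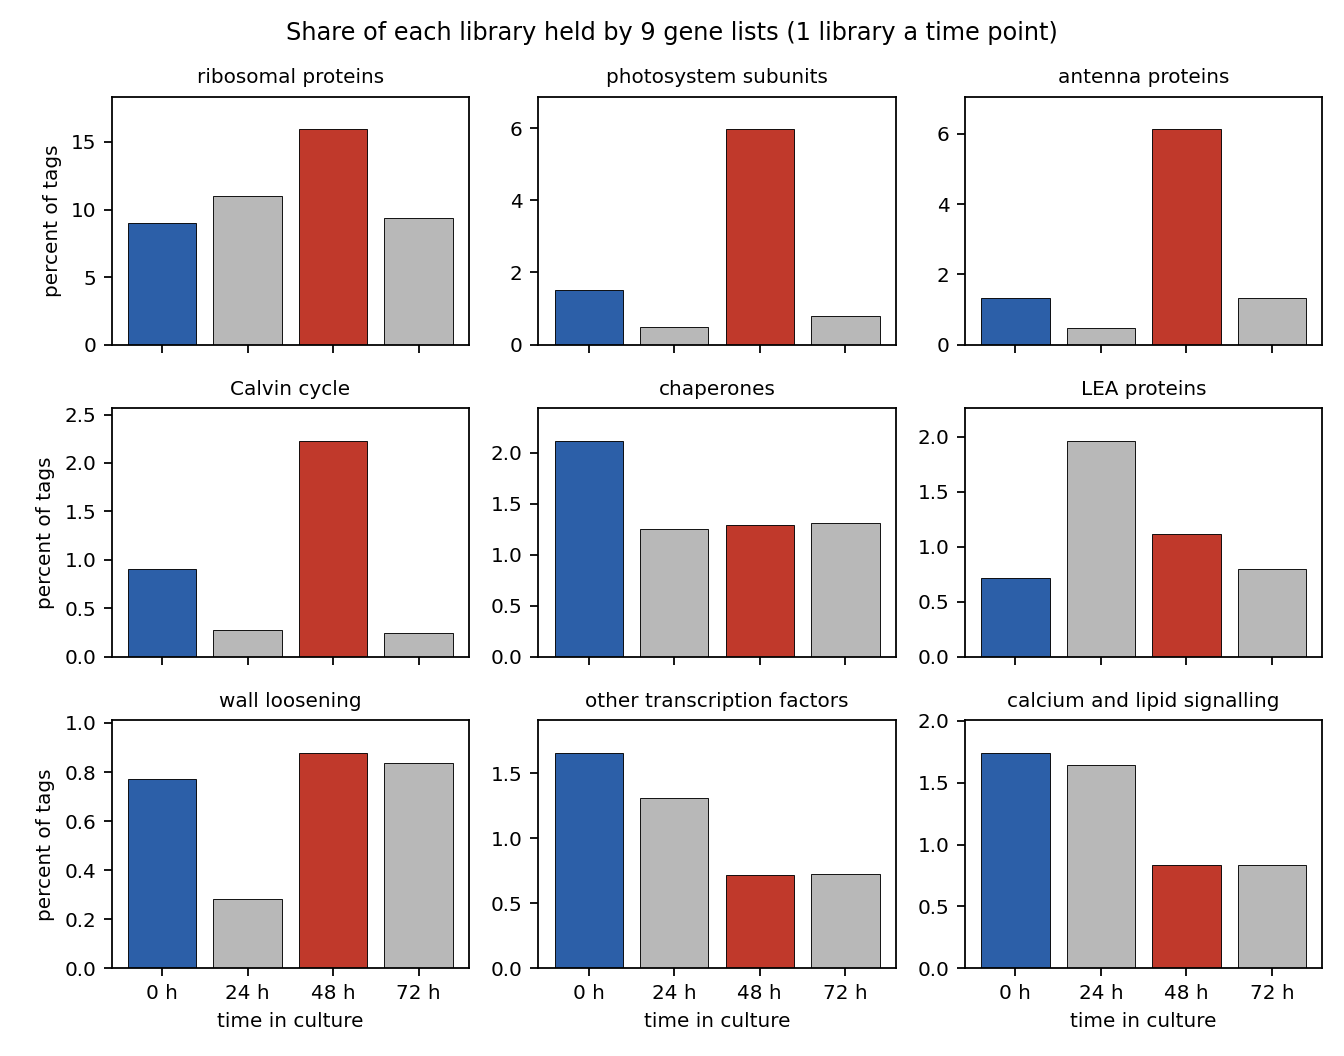
Percent of each library's tags held by 9 gene lists at 0, 24, 48 and 72 h, with 1 bar for each library, blue at 0 h and red at 48 h, and a vertical scale of its own from 0 in each panel. Antenna genes held 1.32% of the tags at 0 h and 6.14% at 48 h, and chaperones 2.12% and 1.29%.

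Within the antenna, 10 of 22 LHCB genes of photosystem II rose and 1 fell. LHCB2.2 (Pp1s213_80V6) had 6420, 2855, 31399 and 15146 tags, the most of any gene at 48 h. It rose 7.24-fold (95% interval 7.05 to 7.44) between 0 h and 48 h. LHCB3 (Pp1s254_3V6) had 1626, 197, 18668 and 1630 tags in the 4 libraries and rose 17-fold. LHCB2.1 (Pp1s19_13V6) went from 254 tags at 0 h and 145 at 24 h to 12877 at 48 h, a 75.1-fold rise, and back to 214 at 72 h. Other genes matched to the same Arabidopsis antenna genes differed less or fell. The LHCB2.1 match Pp1s52_157V6 had 3866 tags at 0 h and 1351 at 48 h, a difference of 1.93-fold that was not called, and the match Pp1s12_390V6 fell from 238 to 33 tags, 4.87-fold. Of 11 LHCA genes of photosystem I, 3 rose and 1 fell.

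The early light-induced proteins (ELIP), which bind chlorophyll freed in bright light, included the largest rise of an annotated gene. ELIP1 (Pp1s371_45V6) had 0, 127, 1767 and 209 tags, which makes it at least 872-fold higher at 48 h than at 0 h, reckoned from 3 tags in the library without any. A further match, Pp1s196_69V6, had 2 tags at 0 h and 391, 1164 and 151 later, 862-fold higher at 48 h (interval 238 to 7123). The other tested matches had 0 against 35 tags (Pp1s262_24V6) and 182 against 191 (Pp1s77_163V6), and neither was called. Both called genes already had tags in the 24 h library, before the light period.

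Photosystem I subunits rose in 13 of 22 tested genes, and none fell. PSAH2 (Pp1s206_11V6), a small subunit near the docking site of mobile antenna, had 108 tags at 0 h and 42, 10732 and 770 later, a 147-fold rise. PSAL (Pp1s54_165V6) rose 30.6-fold from 37 to 765 tags, and PSAD-2 (Pp1s4_321V6), of the ferredoxin-docking side, 19.9-fold from 380 to 5104. A second PSAH2 match, Pp1s89_62V6, rose 6.97-fold, from 75 to 353 tags. In photosystem II, 14 of 39 genes rose and 1 fell. PSBX (Pp1s116_110V6) rose 7.36-fold from 2110 to 10491 tags, and PSBO2 (Pp1s306_84V6), of the water-splitting complex, 11.7-fold from 338 to 2672. The fall was that of PSBQA (Pp1s41_281V6), with 158 tags at 0 h and 23 at 48 h, whereas another PSBQA match (Pp1s1_461V6) rose 10.7-fold from 514 to 3706.

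Rubisco small subunit genes (RBCS) rose in 6 of 12 tested members, and the family median log2 ratio was 3.07. RBCS1A (Pp1s312_46V6) had 214, 188, 6137 and 96 tags and rose 42.5-fold. Its relative Pp1s109_145V6 had 437, 147, 5998 and 11 tags and rose 20.3-fold. Both were high in the 48 h library alone. Transketolase (Pp1s213_103V6) had 0 tags at 0 h and 107 at 48 h, at least 52.8-fold higher. Against these, GAPA-2 (Pp1s11_397V6), the plastid glyceraldehyde 3-phosphate dehydrogenase, fell 6.04-fold from 1181 to 132 tags, and phosphoglycerate kinase (PGK, Pp1s293_91V6) 4.63-fold from 754 to 110.

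Pigment synthesis rose in fewer genes. Of 37 genes of chlorophyll and carotenoid synthesis, 7 rose and none fell, with a median log2 ratio of 0.27. Phytoene synthase (PSY, Pp1s196_120V6), the first step of the carotenoid path, rose 9.85-fold from 72 to 479 tags, and HEMB1 (Pp1s219_94V6), which makes the pyrrole ring of chlorophyll, 8.03-fold from 207 to 1123. Among light receptors and their partners, 2 of 32 genes rose and 3 fell, with a median of −0.88, shares close to the 6.51% and 9.56% of all tested genes. The matches to phytochrome B (PHYB), a red light receptor, differed among themselves. Pp1s164_65V6 rose 11.2-fold from 20 to 152 tags and Pp1s47_31V6 4.63-fold from 32 to 100, while Pp1s289_37V6 had 106 tags at 0 h and 56 at 48 h and Pp1s81_159V6 had 28 and 0, and neither was called. PIF3 (Pp1s147_126V6), a bHLH factor that phytochrome removes in light in Arabidopsis, had 398, 200, 13 and 67 tags and fell 20.7-fold. The PIF3 match Pp1s84_22V6 fell 14.2-fold from 253 to 12 tags. The matches Pp1s69_37V6, with 199 and 119 tags, and Pp1s68_85V6, with 33 and 12, were not called. The bZIP factor HY5 had 97 tags at 0 h and 14 at 48 h (Pp1s80_72V6) and 14 and 3 (Pp1s87_156V6), both under the minimum of 100 tags. COP1 (Pp1s37_28V6), a ubiquitin ligase known in Arabidopsis as a repressor of light growth, had 117 tags at 0 h and 0 at 48 h, at least 26.3-fold lower, while the COP1 match Pp1s154_52V6 had 91 and 80 and was not called.

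**Figure D4:**
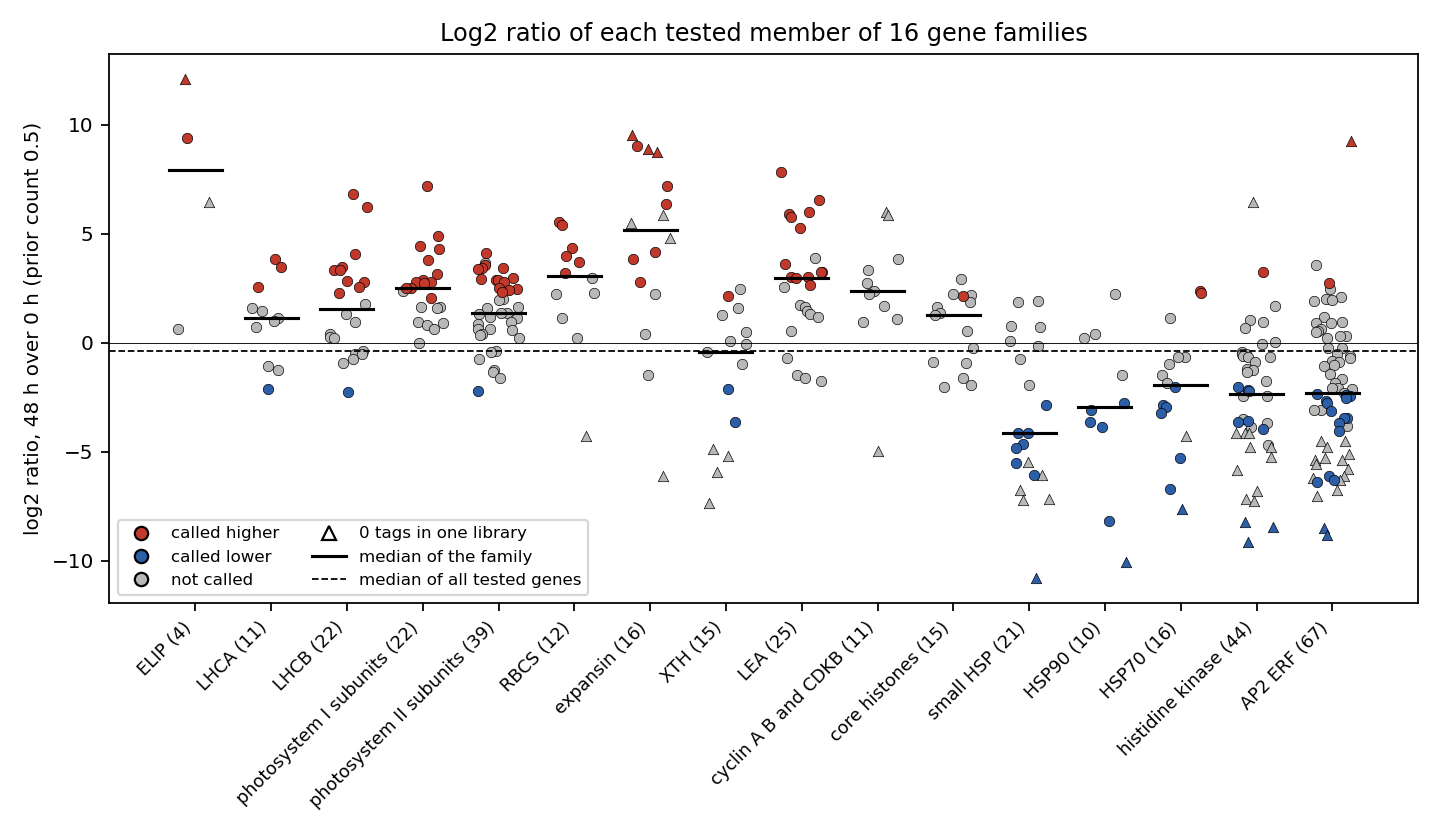
Log2 ratio of 48 h over 0 h (vertical axis, prior count 0.5) of each tested member of 16 gene families, with the number tested in brackets. Triangles mark genes with 0 tags in either library, whose position depends on the prior count, bars the family median and the dashed line the median of all tested genes, −0.36, and expansins lie mostly above it and small heat shock proteins mostly below.

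Ribosomal protein genes gave the largest number of rises of any list. Of 447 ribosomal protein genes of cytosol and organelles, 106 (23.7%) rose and 19 (4.25%) fell, and 315 had a ratio above 1. The list took 8.99%, 11.0%, 15.97% and 9.38% of the tags at 0, 24, 48 and 72 h. A gene of the L13 family (Pp1s63_162V6) had 8, 27, 1584 and 225 tags and rose 293-fold (interval 148 to 680.1). The S3Ae gene Pp1s80_113V6 had 21, 12, 2057 and 235 tags and rose 145-fold, and the plastid-type PSRP-3 gene Pp1s14_169V6 rose 97.0-fold from 23 to 1507. Each of these genes had its highest count at 48 h. Among the falls, an S30 gene (Pp1s283_53V6) went from 6598 to 430 tags, 10.4-fold, and plastid PRPL11 (Pp1s141_43V6) from 355 to 18, 13.3-fold.

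Translation factors and tRNA synthetases gave 16 rises (10.1%) and 14 falls (8.86%) among 158 genes, beside 6.51% and 9.56% of all tested genes. Their balance turned to 13 rises and 18 falls with scaling by total tags. A SUI1-type initiation factor (Pp1s4_134V6), a protein of start codon choice, had 15742, 1993, 147 and 145 tags, a 72.3-fold fall from a place among the 8 genes with the most tags at 0 h. An EFG/EF2-type elongation factor (Pp1s266_52V6) had 276 tags at 0 h and 0 at 48 h, at least 62.1-fold lower. In the other direction, elongation factor Ts (emb2726, Pp1s74_243V6) rose 18.8-fold from 46 to 583 tags. Of 41 genes of ribosome assembly in the nucleolus, 2 (4.88%) rose and 3 (7.32%) fell, beside 6.51% and 9.56% of all tested genes. The nucleolin match Pp1s118_39V6 (NUC-L2) rose 9.92-fold, from 47 to 315 tags, and the NUC-L2 match Pp1s28_124V6 fell 13.4-fold, from 597 to 30.

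Respiratory genes rose more often than they fell, in 9 of 71 genes against 1, with a median log2 ratio of 0.95. Cytochrome c1 (Pp1s2_788V6), of the respiratory chain, rose 15.0-fold from 140 to 1420 tags, and FRO1 (Pp1s101_162V6), a complex I subunit, 35.7-fold from 7 to 169. Citrate synthase (ATCS, Pp1s37_33V6) was the fall, 7.32-fold from 553 to 51. Glycolysis and fermentation genes went both ways. Of 54 genes, 7 (13.0%) rose and 9 (16.7%) fell, beside 6.51% and 9.56% of all tested genes, although the median was 0.41. A pyruvate kinase (Pp1s170_89V6) rose 8.21-fold from 138 to 765 tags, whereas cytosolic GAPC1 (Pp1s49_96V6) had 132 tags at 0 h and 361, 0 and 31 later, at least 29.7-fold lower.

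Stores and peroxisomes were divided as well. In starch, sucrose and trehalose metabolism 9 genes (12.2%) rose and 8 (10.8%) fell of 74, beside 6.51% and 9.56% of all tested genes. Starch synthase SSI1 (Pp1s404_31V6) rose 29.8-fold from 10 to 201 tags, and APL2 (Pp1s175_26V6), a subunit of ADP-glucose pyrophosphorylase at the entry to starch, 16.8-fold from 23 to 261. Beta-amylase BAM1 (Pp1s106_57V6), which breaks starch down, had 177 tags at 0 h, 275 at 24 h and 0 at 48 h, at least 39.9-fold lower. Trehalose phosphate synthase TPS5 (Pp1s153_142V6) fell 150.0-fold, from 444 tags to 2. The list as a whole was close to even, with a median log2 ratio of −0.19, and a minimum of 30 tags gave 13 rises and 16 falls. Of 50 peroxisomal fatty acid and glyoxylate genes 6 rose and 6 fell. The thiolase PKT3 (Pp1s55_275V6), of fatty acid breakdown, rose 18.8-fold from 36 to 457 tags, while PCK1 (Pp1s1_815V6), of gluconeogenesis, fell 10.4-fold from 263 to 17.

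Wall loosening genes rose through the expansins. Of 81 wall loosening and remodelling genes 12 rose and 6 fell, and 9 of the rises were among the 16 tested expansins, of which none fell. The expansin median log2 ratio was 5.17. EXPB3 (Pp1s251_59V6) had 2, 15, 921 and 0 tags, 682-fold higher at 48 h (interval 188 to 5638). EXPA14 (Pp1s11_29V6) had 16, 4, 1636 and 0 tags and rose 151-fold. A second EXPB3 match, Pp1s313_58V6, had 0, 2, 300 and 0 tags, at least 148-fold higher. These 3 genes had almost all of their tags in the 48 h library. The expansin with the most tags, EXPA9 (Pp1s246_53V6), rose 14.3-fold, from 397 to 3829. Xyloglucan endotransglucosylases, which cut and rejoin wall polymers, gave 1 rise and 2 falls among 15, the larger fall being that of XTH9 (Pp1s309_36V6), 12.7-fold from 1184 to 63 tags.

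**Figure D5:**
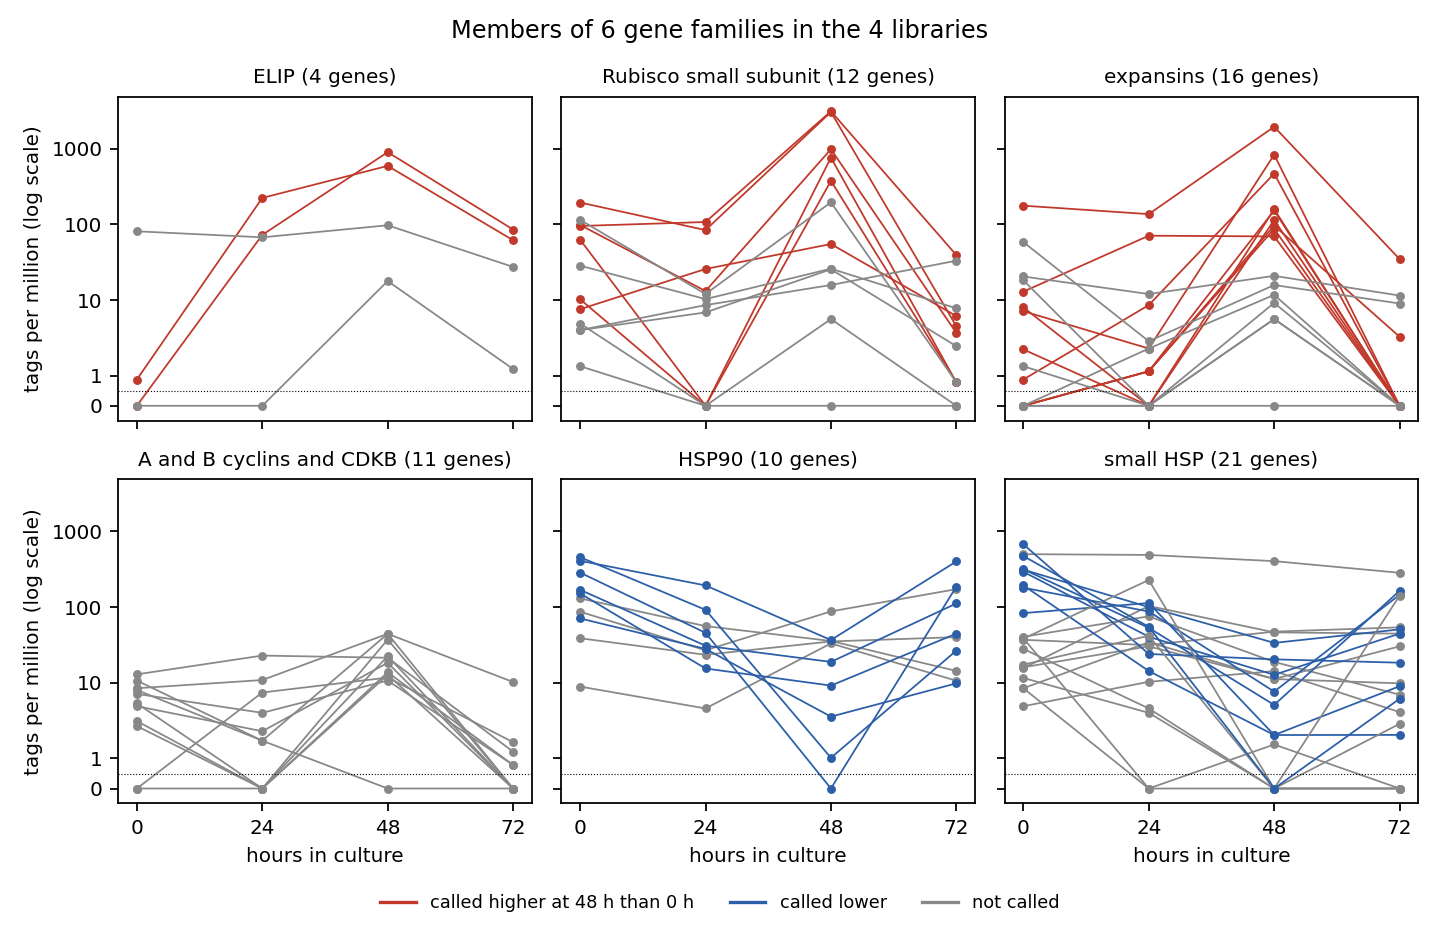
Tags in 1000000 (log scale) of each tested member of 6 gene families at 0, 24, 48 and 72 h, 1 line a gene, with 0 tags below the dotted line, red for genes called higher at 48 h than at 0 h, blue for those called lower and grey for the others. Most expansins peak at 48 h and are at 0 tags at 72 h, cyclins stay under 100 tags in 1000000, and 6 of 10 HSP90 and 8 of 21 small HSP genes were called lower at 48 h.

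Of 84 genes of wall polysaccharide synthesis 3 (3.57%) rose and 9 (10.7%) fell, beside 6.51% and 9.56% of all tested genes, with a median log2 ratio of −0.68. An exostosin-type glycosyltransferase (Pp1s69_76V6) rose 68.5-fold from 7 to 324 tags, and a UDP-glucose 6-dehydrogenase (Pp1s49_270V6), which supplies the sugars of pectin and hemicellulose, 9.34-fold from 93 to 587. Among the falls were UGE5 (Pp1s101_67V6), a sugar nucleotide epimerase, 45.5-fold from 1145 to 17 tags, and CSLD6 (Pp1s372_55V6), a cellulose synthase-like protein, 50.9-fold from 226 to 3. Secreted class III peroxidases and laccases, which cross-link wall phenolics, gave 0 rises and 4 falls among 19. LAC12 (Pp1s17_180V6) had 509 tags at 0 h and 3, 14 and 0 later, a 24.6-fold fall by 48 h.

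Cell cycle genes were thinly counted, and few passed the rule. Of 66 genes of cyclins, cyclin-dependent kinases and mitosis, 0 rose and 1 fell, a cyclin family gene (Pp1s80_193V6) that went 10.9-fold down from 226 tags to 14. The A-type and B-type cyclins and the B-type kinases, which act in S phase and mitosis, had a ratio above 1 in 10 of 11 tested genes, with a median log2 ratio of 2.40, but no member reached 100 tags. CYCA1;1 (Pp1s642_3V6) had 7, 0, 73 and 0 tags, a ratio of 15.4. CDKB1;1 (Pp1s127_92V6) had 24, 3, 87 and 0 tags, a ratio of 5.37. None of these is a call. The other cyclins and kinases had a median of −0.77, with 5 of 17 ratios above 1 and 0 calls. Of 43 genes of DNA replication 1 (2.33%) rose and of 15 core histone genes 1 (6.67%), beside 6.51% of all tested genes. The rises were topoisomerase II (TOPII, Pp1s109_208V6), 4.16-fold from 37 to 104 tags, and the histone gene Pp1s34_255V6, 4.52-fold from 56 to 171. Both lost the call with scaling by total tags.

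Of 100 genes of chromatin modifiers and remodellers, 1 (1%) rose and 4 (4%) fell, beside 6.51% and 9.56% of all tested genes. Their median log2 ratio was −1.60 and 25 ratios were above 1, beside a median of −0.72 over all genes with 10 to 99 tags over both libraries together. CHR4 (Pp1s223_99V6), a chromatin remodeller, had 180 tags at 0 h and 27, 0 and 127 later, at least 40.5-fold lower at 48 h. PIE1 (Pp1s452_20V6), of the complex that deposits histone H2A.Z in Arabidopsis, fell 67.2-fold, from 199 to 2 tags.

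In the cytoskeleton 5 genes (5.26%) rose and 8 (8.42%) fell of 95, close to the shares of all tested genes. TUB8 (Pp1s252_90V6), a beta-tubulin, rose 11.1-fold from 86 to 647 tags, and profilin PFN2 (Pp1s3_191V6), which binds actin monomers, 7.55-fold from 339 to 1729. ACT7 (Pp1s381_18V6) had 2193, 533, 59 and 427 tags and fell 25.1-fold, yet the ACT7 match Pp1s381_21V6 had 584 tags at 0 h and 642 at 48 h and was not called. Of 214 genes of vesicle trafficking 10 (4.67%) rose and 24 (11.2%) fell, beside 6.51% and 9.56% of all tested genes. The small GTPase ARFA1B (Pp1s201_42V6) rose 22.6-fold, from 222 to 3385 tags, and syntaxin SYP124 (Pp1s300_43V6) fell 90.7-fold, from 537 to 4, with 1479 tags at 72 h.

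Among genes of late embryogenesis abundant (LEA) proteins, which protect dry cells, more rose than fell. Of 25 genes whose match is named as LEA, dehydrin or AWPM-19-like, 13 rose and none fell, with a median log2 ratio of 2.97. With scaling by total tags 13 were higher and 1 lower. The LEA gene Pp1s234_91V6 had 3, 578, 563 and 63 tags and rose 278-fold. The LEA gene Pp1s114_139V6 had 45, 661, 1958 and 572 tags and rose 64.4-fold. For both, the count had left its 0 h level by 24 h. In the wider list of 49 genes with dehydrins and dehydration proteins, 15 rose and 5 fell. GEA6 (Pp1s12_68V6), a seed protein in Arabidopsis, was among the falls, with 119 tags at 0 h and 0 at 48 h. Its match is described as a stress induced protein, so that it was outside the 25 although in the wider list.

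Several families of heat shock chaperones fell. Of 237 chaperone genes 12 rose and 39 (16.5%) fell, although their median log2 ratio, −0.32, was close to that of all tested genes, −0.36. Among 21 small heat shock protein genes 0 rose and 8 fell, with a median log2 ratio of −4.15, and among 10 HSP90 genes 0 rose and 6 fell, with a median of −2.94. HSP21 (Pp1s97_106V6), a plastid small chaperone, had 1063, 96, 0 and 15 tags, at least 239-fold lower. HSP90.1 (Pp1s258_52V6) had 1026, 161, 2 and 65 tags and fell 347-fold (interval 95.7 to 2865). A second HSP90.1 match (Pp1s291_62V6) had 642, 80, 0 and 455 tags, at least 145-fold lower at 48 h. All 3 had already fewer tags at 24 h, and the last had regained most of its count at 72 h.

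HSP70 genes gave 2 rises and 7 falls among 16. HSC70-1 (Pp1s298_26V6) fell 112-fold from 992 tags to 6, while another HSC70-1 match (Pp1s97_279V6), which the study used as its reference for PCR, had 379, 581, 1233 and 110 tags and rose 4.82-fold, a call lost with scaling by total tags. BAG6 (Pp1s60_190V6), a co-chaperone with calmodulin binding, had 1719, 64, 4 and 79 tags and fell 290.3-fold. Among the heat shock factors that switch on chaperone genes, 3 of 6 fell, as HSF3 (Pp1s249_84V6) did 4.32-fold from 460 to 72 tags. The rises in the chaperone list included a DnaJ-type gene (Pp1s301_31V6), 65.9-fold from 79 to 3516 tags.

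Genes against superoxide and peroxide gave 16 rises (14.8%) and 9 falls (8.33%) among 108, beside 6.51% and 9.56% of all tested genes. DHAR2 (Pp1s271_8V6), which recycles ascorbate, had 0, 538, 195 and 83 tags, at least 96.2-fold higher at 48 h than at 0 h. PER1 (Pp1s12_126V6), a 1-cysteine peroxiredoxin, had 17, 3643, 551 and 2673 tags and rose 48.0-fold. Both counts were higher at 24 h than at 48 h. Of 24 glutathione S-transferases 2 (8.33%) rose and 3 (12.5%) fell, beside 6.51% and 9.56% of all tested genes. GSTF9 (Pp1s66_172V6), the gene with the most tags at 0 h, went from 26187 tags through 5006 to 3319 at 48 h, a 5.33-fold fall, and stood at 236061 at 72 h.

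AP2/ERF transcription factors fell in 17 (20.5%) of 83 tested genes and rose in 2, with a median log2 ratio of −2.09. The AP2-type gene Pp1s15_186V6 had 663 tags at 0 h and 114, 5 and 2 later and fell 89.6-fold. RAP2.11 (Pp1s17_332V6) had 628, 273, 5 and 57 tags and fell 84.8-fold. Against this direction, the AP2-type gene Pp1s21_214V6 had 0, 10, 249 and 26 tags, at least 123-fold higher at 48 h. Of 308 genes of other factor families 8 rose and 47 (15.3%) fell, with a median of −1.06. Rises were found for bZIP7 (Pp1s147_89V6), 7.28-fold from 178 to 875 tags, and for a bHLH gene (Pp1s163_95V6), 53.3-fold from 4 to 144. WRKY50 (Pp1s426_30V6), of the defence-linked WRKY family, had 211 tags at 0 h, 9 at 24 h and 0 at 48 h and 72 h. SCL14 (Pp1s98_14V6), a GRAS family factor, fell 36.3-fold from 698 to 13, and 3 of 10 scarecrow-like genes fell in all. Among 8 tested matches of the RHD6, RSL and LRL factors, which mark root hairs and in moss rhizoids and caulonema, 0 rose and 1 (12.5%) fell. The share of falls over all tested genes was 9.56%. The fall was RSL2 (Pp1s84_14V6), with 186 tags at 0 h and 0 at 48 h, and no cell type was called from these matches.

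Hormone genes lay lower at 48 h. Of 103 genes of cytokinin, gibberellin, ethylene, jasmonate and brassinosteroid, 5 rose and 21 (20.4%) fell, with a median log2 ratio of −2.01. Histidine kinases, the receptors of cytokinin and related sensors, fell in 9 of 44 tested genes and rose in 1, and 13 had 0 tags at 48 h. The cytokinin receptor match WOL (Pp1s44_240V6) had 334, 200, 0 and 6 tags, at least 75.2-fold lower at 48 h, and HK3 (Pp1s203_100V6) had 210, 78, 0 and 5. Neither returned to its 0 h count by 72 h. Among 11 response regulators, which act after these receptors, 0 rose and 2 fell, and RR2 (Pp1s16_393V6) fell 28.4-fold from 504 to 12 tags. Allene oxide synthase and cyclase, enzymes of jasmonate synthesis in Arabidopsis, went the other way. Of 5 such genes 3 rose, among them AOS (Pp1s72_301V6) 11.3-fold from 73 to 555 tags and AOC3 (Pp1s378_11V6) 6.63-fold from 71 to 318. Other steps of that synthesis were not examined apart.

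The list of abscisic acid genes and type 2C phosphatases gave 3 rises (5%) and 9 falls (15%) among 60, beside 6.51% and 9.56% of all tested genes. Among 32 tested genes of type 2C phosphatases, 2 rose and 3 fell. PYL11 (Pp1s105_38V6), a receptor match, had 645, 157, 3 and 284 tags and fell 145-fold. ABI3 (Pp1s104_58V6), a B3 factor of desiccation tolerance, had 715, 140, 18 and 65 tags and fell 26.8-fold, and 2 of 7 tested ABI3 matches fell in all. A zeaxanthin epoxidase (ABA1, Pp1s91_16V6), an early enzyme of abscisic acid synthesis, rose 5.87-fold from 59 to 234. Of 47 auxin genes 2 (4.26%) rose and 6 (12.8%) fell. ARF6 (Pp1s119_32V6), an auxin response factor, fell 52.4-fold from 155 tags to 2, and DFL2 (Pp1s67_243V6), of the GH3 family that conjugates auxin, rose 11.1-fold from 77 to 575.

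Signalling genes of calcium, MAP kinases and lipids fell in 38 (18.1%) of 210 and rose in 6. The EF hand gene Pp1s107_173V6 had 1199, 393, 4 and 15 tags and fell 202-fold. The EF hand gene Pp1s68_31V6 fell 112-fold, from 1827 to 11. CaS (Pp1s255_55V6), a calcium sensor of the chloroplast, rose 6.76-fold, from 362 to 1652 tags. Receptor-like kinases gave 2 rises (1.77%) and 10 falls (8.85%) among 113, a share of falls near that of all tested genes. Of 251 ubiquitin ligase and F-box genes 5 rose and 39 (15.5%) fell, with a median log2 ratio of −1.10, and an F-box gene (Pp1s44_338V6) had 358 tags at 0 h and 0 at 48 h. The cullin CUL4 (Pp1s204_102V6) was among the rises, 7.80-fold from 119 to 627.

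Transporters and channels rose in 19 (4.67%) and fell in 50 (12.3%) of 407 genes, beside 6.51% and 9.56% of all tested genes. PHT2;1 (Pp1s4_440V6), a phosphate carrier of the plastid in Arabidopsis, had 0 tags at 0 h and 128 at 48 h, at least 63.2-fold higher. The aquaporin NIP5;1 (Pp1s37_249V6) rose 12.2-fold, from 49 to 404 tags, with 3142 at 24 h. AMT1;2 (Pp1s33_380V6), an ammonium transporter, had 182 tags at 0 h and 0 at 24 h and 48 h. The ABC transporter PEN3 (Pp1s15_137V6) had 808, 71, 7 and 916 tags, 78.0-fold lower at 48 h than at 0 h.

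Several of the largest differences belonged to genes not described so far. GGH1 (Pp1s26_236V6), which trims the glutamate tail of folates, had 8, 3779, 3241 and 551 tags and rose 599.8-fold (interval 304 to 1390). An alpha/beta-hydrolase (Pp1s241_102V6) had 28, 93, 3775 and 22 tags and rose 199.6-fold. The 1st of these had risen by 24 h and the 2nd was high at 48 h alone. Serine acetyltransferase SERAT1;1 (Pp1s212_107V6), of cysteine synthesis, had 1726, 13, 2 and 27 tags and fell 583-fold. It belongs to the list of amino acid and nitrogen assimilation, in which 6 (8.82%) of 68 genes rose and 8 (11.8%) fell. A gene with the domains DUF630 and DUF632 (Pp1s15_49V6) had 1921, 104, 0 and 219 tags, at least 432-fold lower at 48 h, the highest 0 h count of any gene without tags at 48 h. The heavy metal domain gene Pp1s169_140V6 had 2992, 3099, 13 and 627 tags and fell 156-fold.

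Genes seen in a single library of the pair were mostly seen at 0 h. Tags occurred at 0 h and not at 48 h for 3620 genes, and at 48 h and not at 0 h for 830, while 1260 had none in either. Most were thinly counted, with a median of 8 tags for the former and 4 for the latter. Single tags had been removed before deposit, so a 0 can hide a tag, and 3 tags correspond to 1.33 in 1000000 tags at 0 h and 1.53 at 48 h. With at least 10 tags, 1658 genes were seen at 0 h only and 203 at 48 h only, and with at least 100 tags 147 and 22. When both libraries were thinned to the smaller total, the counts at 10 tags were 1528 and 204. The genes without tags at 0 h held 0.740% of the 48 h library, and the genes without tags at 48 h held 3.68% of the 0 h library.

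The other libraries divided these genes further. Of the 3620 genes seen at 0 h and not at 48 h, 2445 had tags at 24 h and 1525 at 72 h, and 943 had none after 0 h. Of the 830 seen at 48 h and not at 0 h, 431 had tags at 24 h and 372 at 72 h, and 274 had tags in the 48 h library only. The 48 h genes with the most tags were ELIP1, described above, and 3 genes without any Arabidopsis match. Pp1s385_3V6 had 0, 5, 1502 and 0 tags, at least 741-fold higher. Pp1s25_107V6 had 0, 707, 755 and 951 tags, at least 373-fold higher, and Pp1s62_88V6 had 0, 78, 465 and 38. The 1st was almost confined to 48 h, whereas the 2nd kept its level from 24 h on.

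Of the 9 genes that the study took to quantitative PCR, 3 were called between 0 h and 48 h. The homeobox gene WOX13 (Pp1s224_106V6), a relative of stem cell regulators, had 281 tags at 0 h and 129, 18 and 4 later. MEE58 (Pp1s20_229V6), of the methyl cycle, fell 7.32-fold from 130 to 12 tags, and HSC70-1 rose as given above. EMB1467 (Pp1s170_67V6), a complex I subunit, had 474 and 1271 tags, a ratio of 3.97, and MAPR3 (Pp1s97_92V6) had 85 and 229, a ratio of 3.99, both just under the 4-fold limit. TOM3 (Pp1s237_67V6) with 769 and 172 tags, LPD1 (Pp1s352_68V6) with 180 and 282, and CKS2 (Pp1s36_271V6) with 192 and 341 were not called. KT1 (Pp1s91_133V6), a potassium transporter, had 61 tags at 0 h and 0 at 48 h, under the minimum of 100 tags.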

How the data were processed

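RNA of 4 cultures was profiled by digital gene expression tags, 1 library a time point, without replicates. The authors removed adaptor, low-quality and single-copy tags, mapped the rest with Bowtie allowing at most 1 mismatch, discarded tags of several genes and deposited the summed tag counts per gene. The deposited column headed TPM equals tags per 100000 clean tags and served only for one alternative scaling, by clean tags. Between 63.8% and 72.5% of the clean tags lay in the gene table. Groups came from the time label. Counts were scaled by TMM in edgeR 4.0.16 (R 4.3.3) over the 4 libraries. Calls followed a rule of size (4-fold, 100 tags), with the minimum close to the lowest count in a list of the study. Log2 ratios carry a prior count of 0.5, and a library with 0 tags was set to 3 for a bound. Alternatives were total tags, clean tags, DESeq2 1.42.0 size factors, TMM over the pair, removal of the top 10 genes, other minimums and folds, edgeR's exact test, thinning and a prior count of 5. Values in 1000000 tags divide by the gene table total. Python 3.11.15, scipy 1.17.1, pandas 2.3.3 and matplotlib 3.10.9 were used, and the calls were tested on simulated data. Genes named were the 12 largest rises and falls with an annotation, ordered by the bound of the interval closest to 1, the 8 genes with the most tags among those seen in a single library of the pair, for each list at most 3 called rises and 3 called falls, the 8 genes with the most tags in each library, the PCR genes and the 3 largest unannotated rises and falls. Members and lists were chosen with earlier results of these data known.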

Additional observations from a re-analysis of the deposited data

How the results depend on the processing

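The choice of scaling moved the balance of calls. Total tags in place of TMM shifted all log2 ratios by −0.37, so that 724 genes were called higher and 1659 lower, and clean tags gave 703 and 1695. Over total tags without the 10 top genes of either library, the counts were 761 and 1602. DESeq2 size factors gave 996 and 1335. TMM over the pair and the added edgeR exact test both gave 940 and 1379, as in the main result, but neither is a separate check. TMM over the pair scaled the 2 libraries against each other just as the main setting did. The exact test was run with a dispersion of 1e-09, which leaves out spread between cultures. Genes that met the rule of size therefore passed it, and it could not remove a call. With a minimum of 30 tags 1552 genes were higher and 2657 lower, and with 300 tags 478 and 541. A fold of 8 left 442 and 805, and a fold of 2 gave 1726 and 2151. An interval wholly beyond 4-fold without the minimum of 100 tags held for 1117 and 1907 genes. At 48 h only, 22 genes were seen with at least 100 tags and 830 with at least 2, and at 0 h only 147 and 3620. Of the 43 lists, 14 had more rises than falls, and 9 had under scaling by total tags and also 9 by clean tags. Translation factors turned to 13 rises and 18 falls under total tags and under clean tags, and to 14 and 17 without the top genes, and defence proteins to 5 and 4 under DESeq2 size factors. A minimum of 30 tags turned starch, sucrose and trehalose metabolism to 13 rises and 16 falls and ribosome assembly to 4 and 3. A minimum of 300 tags turned glycolysis to 4 and 2, defence proteins to 4 and 2 and amino acid genes to 5 and 2. A fold of 8 turned photorespiration to 0 and 1 and glutathione S-transferases to 2 and 0. A fold of 2 turned glycolysis to 16 and 10, ribosome assembly to 4 and 3, defence proteins to 7 and 5 and the lipid list to 21 and 20. Of the 251 genes named by the rules of choice 241 kept their call with total tags and 249 with DESeq2 size factors. Family members named beyond those rules were not among the 251. None of the 251 was called in the opposite direction under any of these scalings, but this outcome was fixed in advance. The median log2 ratio of all genes ranged only from −0.77 with clean tags to −0.27 with DESeq2 size factors. A call of at least 4-fold could not be reversed by such a shift. No paired analysis was possible because each time point had 1 library, and for the same reason no replicate could be left out. No gene of the 11 A- and B-type cyclins and B-type cyclin-dependent kinases reached 100 tags, and 2 of 17 other cyclins and kinases and 4 of 15 core histones did, so the others could not be called.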

Other observations

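Further groups showed values that belong beside these. Of 67 proteasome subunit genes 3 (4.48%) rose and 6 (8.96%) fell, close to the 6.51% and 9.56% of all tested genes. Their median log2 ratio was 0.06. The core subunit PAD2 (Pp1s234_64V6) rose 11.0-fold from 50 to 372 tags, while the activator PA200 (Pp1s166_98V6) had 252 tags at 0 h and 0 at 48 h. Genes of ubiquitin itself gave 5 rises and 1 fall among 14 tested members. UBQ6 (Pp1s56_52V6) had 2, 77, 393 and 36 tags in the 0, 24, 48 and 72 h libraries, 291-fold higher at 48 h than at 0 h, and the UBQ6 match Pp1s184_64V6 rose 6.48-fold from 2337 to 10224. These families and their members were chosen after their values were seen. TSPO genes, which encode an outer membrane protein that binds porphyrins, gave 3 rises and 1 fall among 5. TSPO (Pp1s403_10V6) had 0, 66, 242 and 23 tags, and the match Pp1s378_26V6 fell 16.5-fold from 171 to 7.

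Genes of RNA handling gave few calls. Of 229 splicing and RNA-binding genes 3 (1.31%) rose and 15 (6.55%) fell, with a median of −0.29, beside 6.51% and 9.56% of all tested genes. CP29 (Pp1s91_60V6), an RNA-binding protein of the chloroplast, rose 5.47-fold from 195 to 721 tags. Pentatricopeptide repeat proteins, which edit and process organelle RNA, gave 0 rises and 4 falls (9.3%) among 43, with a median of −0.58. The share of falls was near that of all tested genes. In the list of fatty acid, wax and sterol synthesis 9 (7.89%) of 114 genes rose and 13 (11.4%) fell, near the shares of all tested genes. This list, drawn from names, also took in genes that are not of such synthesis. Among its calls were lipid-transfer type genes (Pp1s2_402V6, Pp1s139_88V6) and ACS4 (Pp1s376_33V6), a 1-aminocyclopropane-1-carboxylate synthase. The acyl carrier protein ACP1 (Pp1s69_154V6) rose 20.9-fold from 459 to 6476 tags. The sterol enzyme CYP710A1 (Pp1s443_12V6) had 1075, 63, 74 and 1066 tags, 9.81-fold lower at 48 h than at 0 h. Of the 3594 genes without an Arabidopsis match 1907 were tested, and 125 rose and 157 fell. These shares were close to the 6.51% and 9.56% of all tested genes. Pp1s350_5V6, which has none, had 3205, 14620, 26253 and 38676 tags and rose 12.1-fold between 0 h and 48 h, and Pp1s109_232V6 had 9203, 427, 721 and 6011 and fell 8.62-fold.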
